A study of Mus musculus with 6 samples.

Results

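Basal7 was a small cluster of tracheal epithelial cells in air-liquid interface culture, and its members were all cells that carry the cluster name Basal7 in the cell table deposited by the authors. They numbered 510 of 23871 cells. Single-cell RNA-Seq had been carried out on primary airway cells of 3 *WT/WT* mice and of 3 *MIS/MIS* littermates, which are homozygous for a missense allele of *Dnaaf5*, a factor that preassembles the dynein motors of motile cilia. All mice were on the C57BL/6 strain and 12 weeks old, the missense allele had been made by CRISPR-Cas9 editing, and the labels name the second genotype only as a DNAAF5 mutant. Cells of the trachea had been expanded as basal cells and differentiated at air-liquid interface, so that the cultures hold epithelium grown in the dish and not freshly isolated tissue. *WT/WT* mice are numbered 1 to 3 below, and *MIS/MIS* mice keep the names MT1301, MT1306 and MT1383.

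Airway basal cells rest on the basement membrane, express keratins 5 and 14 and the transcription factor p63, and renew the secretory and multiciliated cells above them. MHC class II molecules present peptides from endocytosed protein to CD4+ T cells. Their alpha and beta chains (*H2-Aa* with *H2-Ab1* in I-A, *H2-Ea* with *H2-Eb1* in I-E, of which C57BL/6 mice make no alpha chain) assemble on the invariant chain *Cd74*, the H2-DM proteins exchange the peptide, and transcription of all of them depends on the coactivator *Ciita*. Dendritic cells, macrophages and B cells express class II constitutively, and epithelial cells can be induced to do so by interferon gamma. *Mmp7*, or matrilysin, is a secreted metalloproteinase made by epithelial cells during repair, *Cryab* is a small heat shock protein, and *Spink8* belongs to the Kazal family of serine protease inhibitors.

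The cells were checked against 5 markers given for the cluster (*Mmp7*, *Spink8*, *Cryab*, *H2-Aa* and *Cd74*), which matched them only in part. Each of the 5 had its highest pooled level in Basal7 among the 16 clusters. However, 960 of the 964 *Spink8* UMIs in Basal7 (99.6%) lay in 3 cells of *WT/WT* mouse 1. A UMI, or unique molecular identifier, marks 1 captured transcript molecule. The same 3 cells held 58.4% of the *H2-Aa* UMIs of Basal7 and 30.1% of its *Cd74* UMIs, and they held 0 of its 3321 *Mmp7* UMIs. *Spink8* was thus not a marker of the cluster as a whole, and class II transcripts and *Mmp7* are described separately below. *WT/WT* mouse 1 also stood apart in its Basal7 cells more broadly, and results that rest on it are given with and without it.

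The mice contributed unequal numbers of Basal7 cells. *WT/WT* mice 1, 2 and 3 had 60, 152 and 52 of them, and *MIS/MIS* mice MT1301, MT1306 and MT1383 had 197, 37 and 12. Median UMIs per Basal7 cell ranged from 19879.5 in *WT/WT* mouse 2 to 41372 in MT1306, and the summed Basal7 UMIs of a mouse from 289799 in MT1383 to 6396813 in MT1301. Levels are given as CPM, the UMIs of a gene per 1000000 UMIs, both summed over the named cells of a mouse. With 12 cells in MT1383, a single UMI there is worth 3.45 CPM. This mouse is therefore shown in the values but was left out of ranking ratios and fits, which used the 5 mice with at least 20 Basal7 cells. It did count in the mean levels that decided which genes were ranked or measured. Of 23804 distinct cell barcodes, 67 occurred in more than 1 library, and 2 Basal7 barcodes also occurred in another library.

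*Mmp7* was nearly confined to Basal7 in these cultures. Its level was 3.76, 352 and 66.2 CPM in Basal7 cells of *WT/WT* mice 1, 2 and 3, and 284, 64.5 and 41.4 CPM in MT1301, MT1306 and MT1383. In all other cells of the same mice it lay between 0.0457 and 0.490 CPM. Basal7 cells held 95.9% of all *Mmp7* UMIs of the series while making up few of its cells. *WT/WT* mouse 1 was low, and the remaining 5 mice spanned a wide range in which the genotypes overlapped. Within the cluster, *Mmp7* was detected in 252 of 510 cells (49.4%), from 8.33% of cells in *WT/WT* mouse 1 to 70.1% in MT1301. After each cell was thinned to 5000 UMIs the share was 30.8% (exact 95% interval 26.8 to 35.0), against 0.0899% of all other cells (0.360% without thinning). In Multiciliated3 cells, taken as a background type, 4 of 2712 cells (0.147%) had an *Mmp7* UMI without thinning. These intervals, like all intervals and limits below, cover counting error only. In the GENCODE M21 annotation of GRCm38, the *Mmp7* gene spans bases 7692090 to 7699585 of chromosome 9 (plus strand).

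*Cryab* was present in a larger share of cells but less restricted. Its level was 69.1, 338 and 373 CPM in Basal7 cells of *WT/WT* mice 1, 2 and 3 and 511, 47.6 and 65.6 CPM in MT1301, MT1306 and MT1383, and in other cells of a mouse it did not exceed 20.2 CPM. It was detected in 76.5% of Basal7 cells, and in 50% after thinning, against 14.5% of other cells and 3.28% of thinned other cells. *Hspb8*, another small heat shock protein, was also above the other cells in all 5 mice, and *Hspb1* was below in all 5, at 151 to 595 CPM in those mice against 364 to 903 CPM.

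Wnt regulators, *Sox9* and the retinol receptor *Stra6* were among the genes by which Basal7 stood out. Genes with a mean of at least 20 CPM in Basal7 were ranked by the lowest log2 ratio, over the 5 mice, of the level in Basal7 to the level in all other cells of the mouse, with 5 CPM added to both. Since the clusters were drawn from these same cells and genes, the levels are a description and no test was made. The first 25 of 5939 genes included *Nkd2*, *Wnt5b*, *Dclk1*, *Slc34a2*, *Gxylt2*, *Stra6*, *Palmd*, *Pdlim3*, *Sox9*, *Cryab*, *Ank*, *Pid1*, *Dram1*, *Mia*, *Lcn2*, *Phldb2*, *Lox*, *Wfdc18*, *Sulf2*, *Renbp*, *Pax9*, *Samd4*, *Cyp1b1* and *Colgalt1*. The lowest ratio was 2.61 for *Nkd2* and 1.18 for *Colgalt1*, the last of the 25, and the gene at rank 26 had 1.17. In 23 of the 25 the pooled level was the highest of the 16 clusters. The exceptions were *Palmd*, which was higher in neuroendocrine cells, and *Pdlim3*, which was higher in ionocytes. The ranking had not used the ratios of MT1383. In that mouse 25 of the 25 were above the other cells and 20 were more than 2-fold above, on the same scale. Its cells were placed in Basal7 by the same clustering, and its levels entered the mean of at least 20 CPM. The values of MT1383 are therefore no independent check. *Mmp7* ranked 73, and *WT/WT* mouse 1 had its lowest ratio.

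*Stra6*, the membrane receptor that takes up retinol from its carrier in blood, had 70.5, 42.8 and 53.7 CPM in *WT/WT* mice 1, 2 and 3 and 77.1, 57.3 and 79.4 CPM in *MIS/MIS*, against at most 12.1 CPM in other cells. Every mouse was thus high in *Stra6*. *Cyp1b1*, a cytochrome P450 that can oxidize retinol, had 113 to 209 CPM in Basal7 and 43.5 to 63.7 CPM in other cells.

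*Nkd2*, an inhibitor of Wnt signalling that binds Dishevelled, had 73.4, 92.8 and 244 CPM in *WT/WT* mice 1, 2 and 3 and 139, 31.3 and 135 CPM in MT1301, MT1306 and MT1383. Elsewhere it was nearly absent, at 0.561 to 5.95 CPM. *Wnt5b*, a secreted ligand of mainly non-canonical Wnt signalling, had 82.3, 103 and 103 CPM in *WT/WT* and 137, 77.5 and 89.7 CPM in *MIS/MIS*, against 2.81 to 8.63 CPM in other cells. From a list of 21 other Wnt and Notch genes, 18 were abundant enough to be measured (a mean of at least 5 CPM in Basal7 or in the other cells), 5 were above the other cells in all 5 mice and 1, the Notch ligand *Jag1*, was below in all 5. *Axin2* and *Lgr5*, targets and feedback components of canonical Wnt signalling, had their highest pooled levels in Basal7. *Axin2* had 9.88, 9.45 and 15.2 CPM in *WT/WT* and 13.8, 11.7 and 20.7 CPM in *MIS/MIS*, against 0.666 to 2.22 CPM in other cells. *Lgr5* had 5.64, 6.67 and 8.68 CPM in *WT/WT* and 10.5, 4.56 and 0 CPM in *MIS/MIS*, against at most 0.627 CPM. *Jag1* was at 7.99 to 16.3 CPM in Basal7 and 21.3 to 40.6 CPM in other cells. Over all 10428 genes measured, 18.8% were above the other cells in all 5 mice, 21.6% were below in all 5, and 5.02% had their highest pooled level in Basal7.

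*Sox9*, a transcription factor of distal lung tips and of airway glands, had 172, 200 and 201 CPM in *WT/WT* and 246, 101 and 159 CPM in *MIS/MIS*, against 14.0 to 29.2 CPM in other cells. *Pax9*, a transcription factor of pharyngeal and oesophageal epithelium, had 121 to 230 CPM against 46.0 to 93.9 CPM. Extracellular matrix was represented by *Lox*, which cross-links collagen and elastin, by *Sulf2*, a heparan sulphate sulphatase, and by *Colgalt1*, which glycosylates collagen. Their levels in Basal7 were 41.4 to 86.3, 13.8 to 62.7 and 166 to 266 CPM, against at most 17.0, 14.4 and 92.2 CPM in other cells. Of 10 measured metalloproteinases and their inhibitors, 4 were above the other cells in all 5 mice. These were *Mmp7*, the membrane-anchored *Mmp15* (128 to 195 against 47.9 to 99.1 CPM) and the inhibitors *Timp2* (282 to 439 against 200 to 291 CPM) and *Timp3* (117 to 508 against 61.3 to 129 CPM). Another 3 of the 10 were below the other cells in all 5 mice. *Adam8*, a membrane-anchored metalloproteinase, had 0 to 3.29 CPM in Basal7 against 18.6 to 46.5 CPM, macrophage elastase (*Mmp12*) had 0 to 1.88 against 5.74 to 53.0 CPM and collagenase 3 (*Mmp13*) had 0 to 3.45 against 2.59 to 21.3 CPM. *Lcn2*, a siderophore-binding protein of the antimicrobial response, had 4263, 3977 and 2526 CPM in *WT/WT* and 6008, 3755 and 1498 CPM in *MIS/MIS*, against 441 to 988 CPM in other cells.

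**Figure D1:**
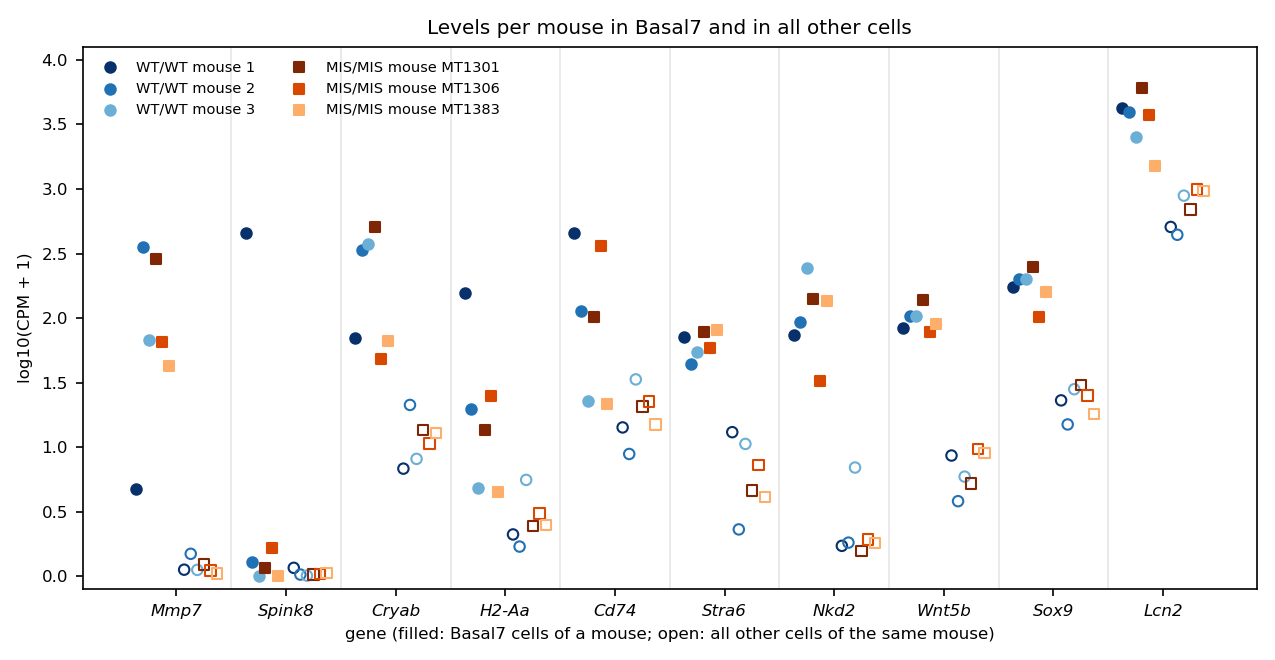
Level of 10 genes, as log10(CPM + 1), in the Basal7 cells (filled) and in all other cells (open) of each of the 6 mice, with circles for *WT/WT* and squares for *MIS/MIS*. *Stra6*, *Nkd2*, *Wnt5b*, *Sox9* and *Lcn2* are higher in Basal7 in each mouse, whereas *Spink8* is high only in *WT/WT* mouse 1, the mouse in which *Mmp7* is lowest.

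The leading genes depended to some extent on the mice used. Without *WT/WT* mouse 1, 18 of the 25 remained among the first 25 and *Mmp7* took the first rank. The genes that entered with it were *Tfcp2l1*, *Krt17*, *Timp3*, *Itgb8*, *Pcdh9* and *Slit2*. Without *WT/WT* mouse 3, 17 remained, and without MT1306, 20 remained. Leaving out *WT/WT* mouse 2 or MT1301 changed none of the 25.

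At the other end, the genes most depleted from Basal7 belonged to multiciliated and secretory cells. Ranked by the highest ratio over the 5 mice, the 10 lowest genes were *Tppp3*, *Bpifa1*, *Sec14l3*, *Dynlrb2*, *Mlf1*, *Tmem212*, *Sult1d1*, *Clca3b*, *Scgb1a1* and *Pon1*. *Tppp3*, a microtubule-bundling protein of cilia, had 2.71 to 13.8 CPM in Basal7 and 181 to 491 CPM in other cells. *Scgb1a1*, the secretoglobin of club cells, had 2.61 to 51.8 CPM against 114 to 393 CPM. All 12 multiciliated cell genes of the list were below the other cells in all 5 mice. Of 10 measured cell cycle genes, 7 were below in all 5 mice and 0 were above. *Top2a*, needed to separate chromosomes, did not exceed 1.67 CPM in Basal7 and lay between 13.3 and 31.2 CPM in other cells. In all, 50 of the 10428 genes were more than 2-fold above and 261 more than 2-fold below the other cells in all 5 mice.

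By its overall profile the cluster was nearest to Basal2 and Basal8, and nearer to both secretory clusters than to the other basal clusters. Across 11737 genes, the pooled log2(CPM + 1) of Basal7 correlated most with Basal2 (Pearson r = 0.962) and Basal8 (r = 0.958), followed by Secretory1 (r = 0.956) and Secretory2 (r = 0.950). The other basal clusters had r = 0.907 to 0.945. These values lie close together, they are across genes, which are not independent replicates, and the clusters share the libraries. In comparison with Basal2 and with Basal8 of the same mouse, 25 of the 25 leading genes were higher in Basal7 in all 5 mice, and 20 and 19 of them were more than 2-fold higher in all 5. The mice supplied between 105 and 1295 Basal2 cells but only between 9 and 209 Basal8 cells.

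The basal keratins did not move together in Basal7: *Krt5* and *Krt15* were lower than in other cells, *Krt17* was higher, and *Krt14* was higher in 5 of 6 mice. Of 13 basal cell genes, 7 were below the other cells in all 5 mice and 2, *Krt17* and the mucin-type glycoprotein *Pdpn*, were above. *Krt5* had 29.6, 72.0 and 135 CPM in *WT/WT* mice 1, 2 and 3 and 31.0, 141 and 335 CPM in *MIS/MIS*, against 103 to 426 CPM in other cells. *Krt15* had 239 to 1222 CPM against 1973 to 3240 CPM. *Krt14*, the partner of keratin 5, went the other way except in *WT/WT* mouse 1, where it had 203 CPM against 443 CPM. In the other 5 mice it had 734 to 1545 CPM against 157 to 696 CPM.

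The finer clustering in the authors' table separated Basal7 into cells high and cells low in *Krt5* and *Trp63*. Of the 510 cells, 448 fell into finer cluster 18, which holds 449 cells in all, and 59 into finer cluster 8, which they share with 1079 Basal2 cells. The other 3 lay elsewhere. The cells of finer cluster 18 numbered 56, 132 and 38 in *WT/WT* mice 1, 2 and 3 and 187, 27 and 8 in MT1301, MT1306 and MT1383. Those of finer cluster 8 numbered 2, 19 and 14 in *WT/WT* and 10, 10 and 4 in *MIS/MIS*. Median UMIs were 28687.5 and 24930 per cell.

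The cells of finer cluster 8 were basal in the usual sense. *Krt5*, pooled over mice, was at 651 CPM in them and at 6.48 CPM in finer cluster 18. *Krt14* was at 3677 against 488 CPM, *Krt17* at 3578 against 574 CPM and *Trp63*, which encodes p63, at 128 against 3.10 CPM. Of the 13 basal genes, 10 were higher in finer cluster 8 than in finer cluster 18 in all 6 mice and 0 were lower in all 6. In MT1306 and MT1383 the high *Krt14* of Basal7 lay mainly in finer cluster 8, at 3366 and 4664 CPM. In finer cluster 18 of these mice *Krt14* was at 77.6 and 171 CPM, against 182 and 159 CPM in cells outside Basal7. *Krt14* was not absent from finer cluster 18. It was above the Basal2 cells of finer cluster 8 in *WT/WT* mouse 3 (1038 against 946 CPM) and MT1301 (612 against 440 CPM), and below them in the other mice. *Krt17* in finer cluster 18 was above these Basal2 cells only in *WT/WT* mouse 3 (1612 against 873 CPM), and below them in the other mice. The cells of finer cluster 18 had higher levels of keratins of simple epithelium and of secreted defence proteins. *Krt18* was at 1681 CPM in them and at 163 CPM in finer cluster 8, *Krt8* at 1148 against 280 CPM, *Lcn2* at 5071 against 395 CPM, the haemoglobin scavenger haptoglobin (*Hp*) at 1184 against 13.1 CPM, lactoferrin (*Ltf*) at 1626 against 88.0 CPM and lysozyme 2 (*Lyz2*) at 2386 against 7.22 CPM. These 6 genes were higher in finer cluster 18 in all 6 mice. The *Lyz2* level rested on *WT/WT* mouse 1, which had 11708 CPM in finer cluster 18 against 19.1 to 3694 CPM in the other mice. Without that mouse the pooled level was 837 CPM.

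Both groups shared *Sox9*, *Stra6* and *Axin2*. *Sox9* was at 213 CPM in finer cluster 18, at 129 CPM in the Basal7 cells of finer cluster 8 and at 14.0 CPM in the Basal2 cells of finer cluster 8. In the same order, *Stra6* was at 63.5, 68.9 and 2.84 CPM, *Axin2* at 12.0, 16.4 and 1.42 CPM and *Mmp7* at 224, 95.2 and 0.0811 CPM. Of the 25 leading genes, 24 were higher in the Basal7 cells of finer cluster 8 than in the Basal2 cells beside them, 20 of them by more than 2-fold, on pooled levels. The exception on pooled levels was *Cyp1b1*, with 25.6 and 25.7 CPM. By mouse the order did not always hold. *Lcn2* was lower than in these Basal2 cells in *WT/WT* mice 1 and 3, MT1301 and MT1306, at 52.7, 406, 447 and 384 against 197, 538, 496 and 546 CPM. It was higher in *WT/WT* mouse 2 and MT1383. In *WT/WT* mouse 2, *Nkd2* was at 3.09 against 3.72 CPM. Between the groups, 14 of the 25 were higher in finer cluster 18 in all 6 mice and only *Pid1* was lower in all 6. Other Wnt genes differed between the groups in all 6 mice, and in opposite directions. *Nkd2* was at 131 CPM in finer cluster 18 and 40.7 CPM in finer cluster 8 and *Wnt5b* at 120 and 36.8 CPM, whereas *Wnt4* was at 198 and 999.8 CPM and *Wnt10a* at 1.06 and 88.0 CPM. Class II genes were lower in finer cluster 8. *H2-Aa* was at 36.9 CPM in finer cluster 18 and 0 of 59 cells of finer cluster 8 held a UMI of it, which allows a share of up to 5.08%, and *Cd74* was at 184 and 2.63 CPM. *H2-Eb1* was at 28.1 and 1.31 CPM, *H2-DMb1* at 14.6 and 0.656 CPM and *H2-DMa* at 8.38 and 0.656 CPM. *WT/WT* mouse 1 set much of these levels in finer cluster 18: *H2-Aa* had 164 CPM in it against 4.63 to 30.2 CPM in the other mice, and without it the pooled levels were 15.8 CPM for *H2-Aa*, 11.3 CPM for *H2-Eb1* and 135 CPM for *Cd74*.

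**Figure D2:**
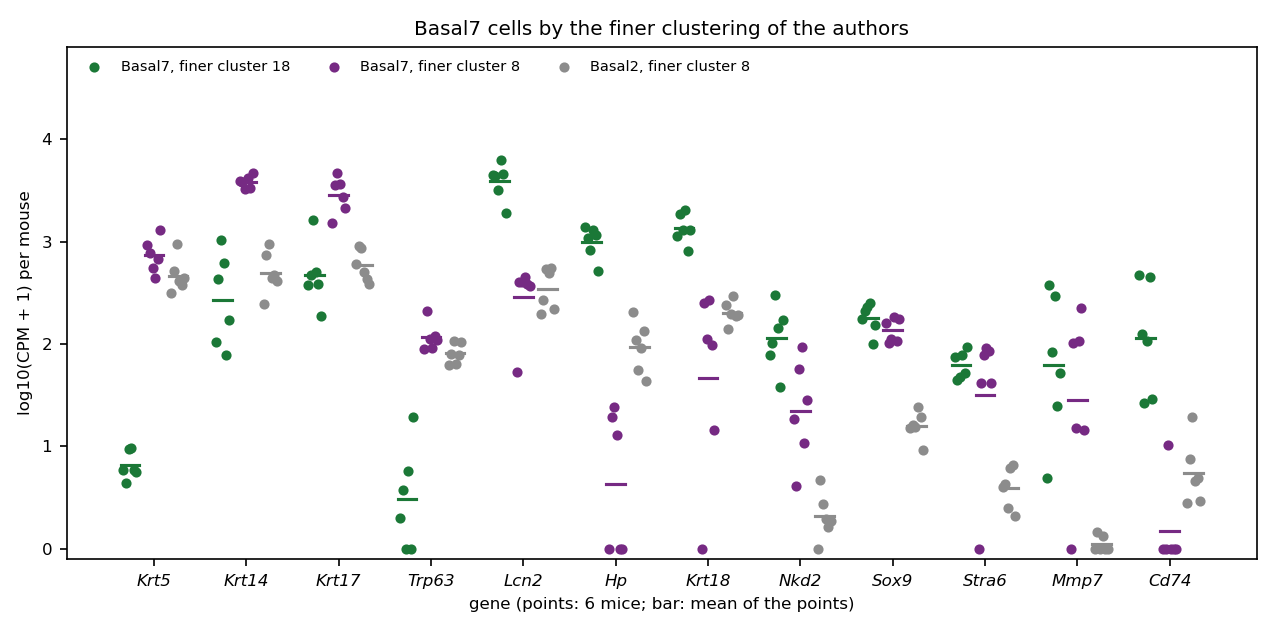
Level per mouse, as log10(CPM + 1), of 12 genes in the Basal7 cells of finer cluster 18 (green), the Basal7 cells of finer cluster 8 (purple) and the Basal2 cells of finer cluster 8 (grey), with 6 mice as points and their mean as a bar. *Krt5*, *Krt14* and *Trp63* separate the green from the purple points, *Lcn2*, *Hp* and *Krt18* separate them the other way, and *Sox9* and *Stra6* are high in both and low in the grey points, except that *Stra6* is at 0 in 1 purple point. The purple points rest on 2 to 19 cells per mouse.

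MHC class II transcripts were present in Basal7 of every mouse, at levels that differed widely. The chains share a promoter design in which an X box and a Y box, a reversed CCAAT sequence, lie at a fixed spacing and are bound by the RFX and NF-Y complexes. The 150 bases before the start of *H2-Aa* and *H2-Eb1*, the chains on which the values below rest, are shown from the RefSeq promoter table on GRCm38.p6. They lie at chr17:34287824-34287973 on the minus strand and at chr17:34305717-34305866 on the plus strand. Capitals mark GCAAC, searched as a piece of the X box, and CCAAT or its reverse complement ATTGG, as the core of the Y box.
*H2-Aa*: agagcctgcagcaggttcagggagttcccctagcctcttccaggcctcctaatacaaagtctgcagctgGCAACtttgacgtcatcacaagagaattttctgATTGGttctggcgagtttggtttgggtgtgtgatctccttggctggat
*H2-Eb1*: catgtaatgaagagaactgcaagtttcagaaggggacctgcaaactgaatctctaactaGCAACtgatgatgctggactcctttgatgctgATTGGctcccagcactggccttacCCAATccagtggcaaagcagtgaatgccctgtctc
Promoters were found for 8 of the 10 class II genes of the list, with 9 start sites, and *H2-Ab1* and *Cd74* were not matched. In the 250 bases before the start, on either strand, CCAAT occurred in 8 of the 9 promoters and GCAAC in 6 of the 9, against 33.8% and 29.9% of all 32851 promoters of the same length. GCAAC was followed by ATTGG at a distance of 30 to 33 bases between their starts in 5 genes (*H2-Oa*, *H2-Ob*, *H2-Aa*, *H2-Eb1* and *H2-Eb2*), against 31 of all promoters (0.0944%). That spacing was chosen after the matches had been seen. A match of letters is a description and not a binding site.

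*H2-Aa*, the alpha chain of the I-A molecule, had 156, 18.6 and 3.80 CPM in Basal7 cells of *WT/WT* mice 1, 2 and 3 and 12.5, 24.1 and 3.45 CPM in MT1301, MT1306 and MT1383. Its level in other cells was 0.695 to 4.57 CPM, and in *WT/WT* mouse 3 it was not above that of the other cells (4.57 CPM). *H2-Ab1*, its beta chain, had 170, 19.5 and 4.88 CPM in *WT/WT* and 16.9, 31.3 and 10.4 CPM in *MIS/MIS*. *H2-Eb1*, the beta chain of I-E, had 123, 11.1 and 7.05 CPM in *WT/WT* and 9.38, 16.9 and 0 CPM in *MIS/MIS*. The 3 chains thus had the same high mouse, *WT/WT* mouse 1, with the next level in MT1306. *Cd74* had 452, 113 and 21.7 CPM in *WT/WT* and 100, 360 and 20.7 CPM in *MIS/MIS*, against 7.85 to 32.5 CPM in other cells. *WT/WT* mouse 3 was again below its own other cells. Of the 6 class II genes measured, *H2-Eb1*, *H2-DMa* and *H2-DMb1* were above the other cells in all 5 mice, also without *WT/WT* mouse 1. All 6 had their highest pooled level in Basal7, but these levels include the few class II-rich cells of that mouse described next. Without the cells high in *Spink8* or *Tg*, pooled *H2-DMa* fell from 7.60 to 5.63 CPM. *H2-DMa* was detected in 12.9% of Basal7 and 13.1% of Multiciliated3 cells (2.94% and 2.62% after thinning). *H2-Eb2* and *H2-DMb2* were seen only in *WT/WT* mouse 1, at 4.23 and 4.70 CPM, and *H2-Oa* and *H2-Ob* were at most 0.278 CPM in any mouse.

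The high level in *WT/WT* mouse 1 came from few cells. The 3 cells rich in *Spink8* held 276, 314 and 370 UMIs of it, and 61, 135 and 110 UMIs of *H2-Aa* and 159, 382 and 244 UMIs of *Cd74*. They held all 9 *H2-Eb2* UMIs and all 10 *H2-DMb2* UMIs of Basal7, and 11 of its 20 *Ciita* UMIs. *Krt5*, *Mmp7* and the pan-leukocyte gene *Ptprc* were at 0 in each of them, and the epithelial adhesion gene Epcam was at 29, 38 and 51 UMIs. Their totals were 29091, 71413 and 50021 UMIs, and the second of them had 7963 genes, above the limit of 7500 that the study's methods state for doublets. Another cell of the same mouse held 135 of the 152 thyroglobulin (*Tg*) UMIs of Basal7. Without these 4 cells, *H2-Aa* in *WT/WT* mouse 1 was at 11.2 CPM, *H2-Ab1* at 7.15 CPM, *H2-Eb1* at 5.62 CPM and *Cd74* at 75.1 CPM, which lies within the range of the other mice. For *H2-Eb1* that range includes 0 CPM in MT1383, and the remaining mice had 7.05 to 16.9 CPM.

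Class II was not restricted to those cells. Among the other 507 cells, *H2-Aa* was detected in 85 (16.8%, at most 13 UMIs in a cell), *H2-Ab1* in 103 (20.3%), *H2-Eb1* in 62 (12.2%) and *Cd74* in 192 (37.9%, at most 88 UMIs in a cell). By mouse, the share of all Basal7 cells with an *H2-Aa* UMI was 18.3%, 19.1% and 13.5% in *WT/WT* and 14.7%, 29.7% and 8.33% in *MIS/MIS*. Over all mice it was 17.3%, against 2.63% of other cells. After thinning to 5000 UMIs, *H2-Aa* was found in 7.25% of Basal7 cells (exact 95% interval 5.16 to 9.86). Other cells as a whole had 0.668%, Basal2 cells 0.485% and Multiciliated3 cells, at a median depth of 26359.5 UMIs against 28183 in Basal7, 0.258%. *Cd74* was detected in 38.2% of Basal7 cells and 10.6% of other cells, and after thinning in 20.6% of Basal7 cells, 3.54% of other cells and 0.221% of Multiciliated3 cells. A share this low among cells of the cluster describes a minority of them at this depth, and cells without a UMI may still express the gene.

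Class II transcripts were detected in cells with and without *Mmp7*. *H2-Aa* was detected in 44 of 252 cells with an *Mmp7* UMI (17.5%) and in 44 of 258 cells without (17.1%). *Cd74* was detected in 42.9% and 33.7% of them. The order for *H2-Aa* differed between mice. It was 29.4% against 5.71% in *WT/WT* mouse 3 and 20% against 33.3% in MT1306. For *Cd74*, *WT/WT* mouse 2 had 50% against 26.4% and MT1306 had 40.0% against 70.4%. In thinned cells, *H2-Aa* was found in 3.82% of 157 cells with *Mmp7* and in 8.78% of 353 without, and *Cd74* in 25.5% and 18.4%. No test over cells was made, since cells of a mouse are not replicates.

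**Figure D3:**
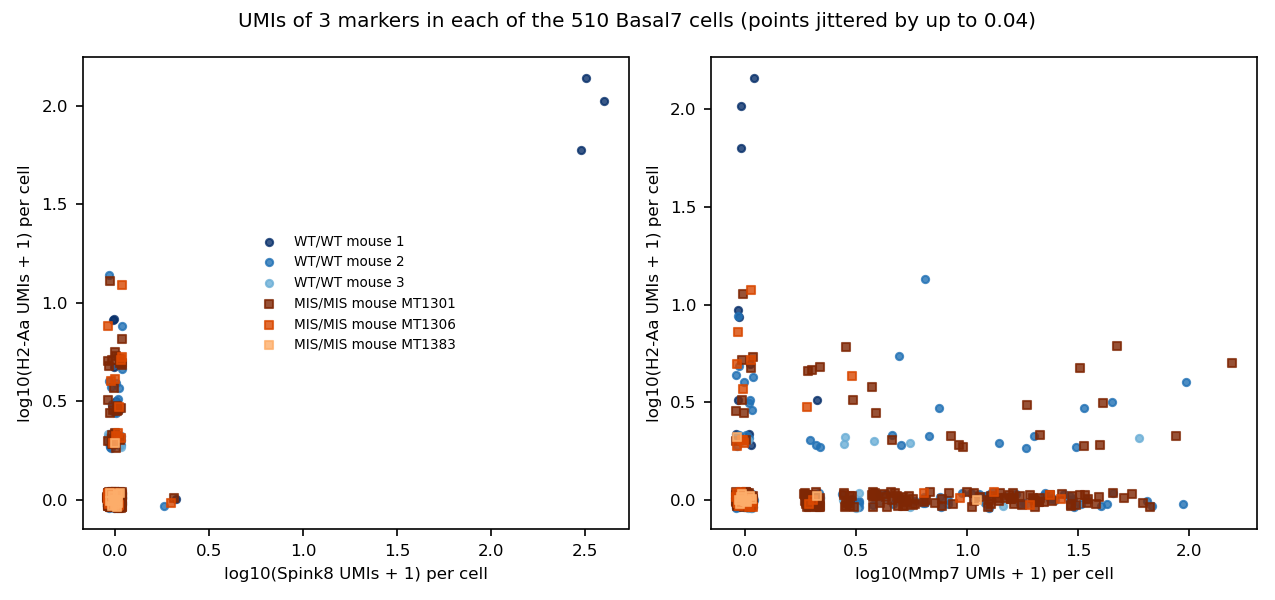
UMIs per cell, as log10(UMIs + 1), of *H2-Aa* against *Spink8* (left) and against *Mmp7* (right) in the 510 Basal7 cells, coloured by mouse. The 3 cells of *WT/WT* mouse 1 at the upper right of the left panel hold 276, 314 and 370 *Spink8* UMIs and no *Mmp7*, whereas cells with 1 to 13 UMIs of *H2-Aa* occur with and without *Mmp7*.

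Genes that act with class II were higher in part. *Ciita* had 6.11 CPM in *WT/WT* mouse 1 and at most 1.30 CPM in the other mice. The RFX, NF-Y and *Creb1* genes of the list showed no shared direction: of 7 regulators measured, 0 were above and 1, *Nfyb*, was below the other cells in all 5 mice. *Nfyb* had 21.6 to 27.6 CPM against 35.4 to 42.3 CPM. Of 9 lysosomal proteases and related genes, 5 were above in all 5 mice. Among them *Lgmn*, the asparaginyl endopeptidase, had 48.3 to 94.5 CPM against 34.9 to 46.3 CPM and *Ctsc*, which activates serine proteases of granules, had 90.3 to 313 CPM against 58.5 to 97.2 CPM. *Ctss*, the protease that trims the invariant chain in professional antigen-presenting cells, did not exceed 3.45 CPM. Of the costimulatory genes, *Cd86*, *Cd40*, *Cd83* and *Pdcd1lg2* were at 0 in Basal7 of every mouse and *Cd80*, *Icosl* and *Cd274* did not exceed 2.17 CPM. *Icam1*, the adhesion molecule, was the member with a measurable level, with 61.1, 58.9 and 46.7 CPM in *WT/WT* and 66.3, 85.4 and 27.6 CPM in *MIS/MIS*, against 44.3 to 73.6 CPM in other cells, so that the ranges overlapped.

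No leukocyte signature accompanied these transcripts. *Ptprc*, *Cd52*, *Cd3e* and *Cd79a* were at 0 in all 510 cells, which allows a share of cells with a UMI of up to 0.588%. The summed level of the 8 leukocyte genes in the count table was 0 to 0.940 CPM in Basal7 and 1.11 to 2.92 CPM in other cells. Of the macrophage and dendritic cell genes, *Itgax*, *Xcr1*, *Flt3* and *Siglecf* were at 0 in Basal7 of every mouse, *Csf1r* and *Mrc1* did not exceed 0.652 CPM, and *Cd68*, a lysosomal protein, did not exceed 23.04 CPM in Basal7, against at most 24.2 CPM in other cells, and was lower than in them in 5 of the 6 mice. *Lyz2*, which airway secretory cells also express, was the most abundant of the list, with 11494, 624 and 15.2 CPM in *WT/WT* mice 1, 2 and 3 and 644, 1965 and 2761 CPM in *MIS/MIS*. It was spread over more than 2 orders of magnitude between mice of the same genotype.

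Class I genes were higher in most cases. *H2-K1*, a classical class I heavy chain, had 1346, 1164 and 843 CPM in *WT/WT* and 1329, 1195 and 1028 CPM in *MIS/MIS*, against 386 to 581 CPM in other cells. *H2-T23*, a non-classical heavy chain, had 237, 158 and 195 CPM in *WT/WT* and 192, 107 and 131 CPM in *MIS/MIS*, against 48.3 to 87.7 CPM. *Psmb8*, an immunoproteasome subunit, had 94.95 to 141 CPM against 39.3 to 61.1 CPM. In all, 11 of the 16 class I and peptide loading genes were above the other cells in all 5 mice, 0 were below in all 5, and 6 had their highest pooled level in Basal7. Without *WT/WT* mouse 1 the count was 11 of 16 in the 4 remaining mice, where 25.1% of all genes were above. Interferon-stimulated genes were alike, with 10 of 18 measured above in all 5 mice and 0 below. *Ifitm3*, which restricts virus entry, had 1471 to 2425 CPM against 647 to 1426 CPM, and *Bst2*, or tetherin, had 143 to 502 CPM against 82.3 to 183 CPM. Of the genes of interferon gamma signalling, 2 of 8, the kinase *Jak1* among them, were above in all 5 mice.

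**Figure D4:**
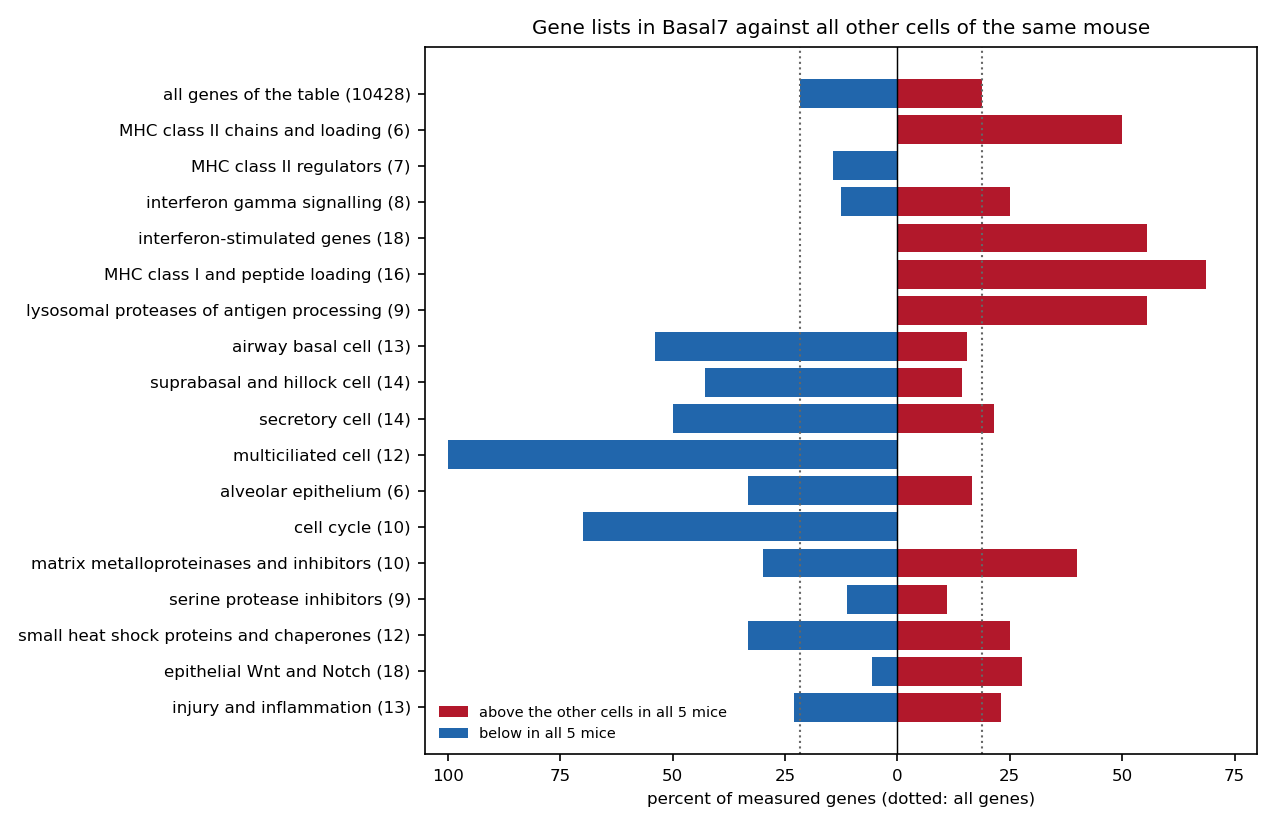
Percent of the measured genes of each list (number in brackets) that were above (red, right) or below (blue, left) all other cells of the same mouse in each of the 5 mice with at least 20 Basal7 cells, with all 10428 genes as the top bar and dotted lines. MHC class I (11 of 16) and interferon-stimulated genes (10 of 18) extend furthest to the right among lists of more than 9 genes, and all 12 multiciliated cell genes lie to the left.

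Mixed among these were a few other features. Of 14 secretory cell genes measured, 7 were below the other cells in all 5 mice, and *Lcn2*, *Hp* and *Cyp2f2* were above. *Slpi*, a leukocyte protease inhibitor secreted onto the airway surface, had 263, 163 and 267 CPM in *WT/WT* and 312, 39.1 and 349 CPM in *MIS/MIS*, against 21.4 to 40.0 CPM in other cells. *Csf1*, a growth factor of macrophages, had 11.7 to 42.4 CPM against 4.71 to 7.67 CPM, and *Tnfaip2*, which is also expressed by M cells, had 10.9 to 61.6 CPM against 5.78 to 13.0 CPM, with *WT/WT* mouse 3 below its own other cells. *Dclk1*, a kinase known as a tuft cell marker, had 115 to 356 CPM against 20.9 to 46.1 CPM, but the tuft cell genes *Pou2f3* and *Gnat3* did not exceed 0.156 and 0.652 CPM.

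Over the 16 clusters, the genes with levels most like *Mmp7*, outside the lists, were *Sostdc1* (Pearson r = 0.992 of log2(CPM + 1)), *1190005I06Rik* (r = 0.942), *Nkd2* (r = 0.909), *Wnt5b* (r = 0.834) and *Itgb8* (r = 0.816). For *H2-Aa* they were *Sostdc1* (r = 0.866), *Gem* (r = 0.836), *Gxylt2* (r = 0.803), *Nfil3* (r = 0.802) and *1190005I06Rik* (r = 0.802). The clusters share their libraries, and these values are a description. Since *Mmp7* was nearly confined to Basal7, its values of r rest on that cluster and largely restate which genes were high in it. The pooled *H2-Aa* level of Basal7 includes the 3 cells rich in *Spink8*, which held 58.4% of its UMIs. *Sostdc1*, a secreted antagonist of BMP and Wnt signals, had 9.88, 11.1 and 15.7 CPM in Basal7 of *WT/WT* and 10.8, 7.82 and 0 CPM in *MIS/MIS*, and at most 0.208 CPM in other cells. The level was 37.4 CPM in the Basal7 cells of finer cluster 8 and 8.03 CPM in finer cluster 18.

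Mice differed among themselves in their Basal7 cells. Across 8003 genes, Pearson r between pairs of the 5 mice lay between 0.898 and 0.985, and the lowest pair was *WT/WT* mouse 1 with *WT/WT* mouse 3. In *WT/WT* mouse 1, 19 genes were more than 4-fold above and 4 more than 4-fold below each of the other 4 mice, with 5 CPM added. In the other mice the numbers were 0 to 2 above and 0 to 4 below. Besides *Spink8* and *H2-Eb1* the high genes, which like the low ones were named after their values had been seen, included *Ly6d* (329 against at most 13.0 CPM in the other mice), *Krt13* of hillock cells (157 against at most 4.34 CPM) and *Agr2*, a disulphide isomerase of mucous cells (217 against at most 31.3 CPM). The *Ly6d* and *Krt13* levels rested largely on single cells, which held 385 and 272 UMIs, although UMIs were found in 25 and 34 cells of the mouse. For *Agr2* the highest cell held 119 UMIs, and 30 cells had a UMI. *Spp1*, or osteopontin, was at 425 CPM, but it came from 5 cells, of which a single cell held 608 UMIs. The low genes included *Mmp7*, *Cavin2* (3.29 against at least 44.3 CPM) and *Myc* (2.82 CPM against at least 28.0 CPM in the 4 other mice with at least 20 cells). *Krt13* was also high in the other cells of *WT/WT* mouse 1, at 2908 CPM against 12.5 to 750 CPM.

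The genotypes were then compared. The question was whether the *Dnaaf5* missense allele changed the number or the transcripts of these non-ciliated cells. Basal7 made up 2.11%, 3.14% and 1.88% of the cells of *WT/WT* mice 1, 2 and 3 and 4.89%, 1.38% and 0.179% of the cells of MT1301, MT1306 and MT1383. The *WT/WT* share was 2.38% ± 0.671 (SD, n = 3) and the *MIS/MIS* share 2.15% ± 2.45 (SD, n = 3), and no difference was detected (two-sided exact permutation test over mice, p = 0.9, where 3 against 3 mice cannot give less than 0.1). The *MIS/MIS* mice held both the highest and the lowest share, and exact 95% intervals of MT1301 (4.24 to 5.60%) and MT1383 (0.0924 to 0.312%) were far apart. A smaller share of the cluster in the culture and fewer of its cells recovered in dissociation cannot be told apart.

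*Dnaaf5* itself is a low transcript in these cells. It had 6.58, 5.84 and 3.26 CPM in Basal7 cells of *WT/WT* and 5.32, 7.82 and 3.45 CPM in *MIS/MIS*, and a missense allele need not change it. No gene passed the test between genotypes. Counts were summed per mouse over Basal7 cells and tested by limma voom in 3 *WT/WT* and 2 *MIS/MIS* mice, without MT1383. Of 9947 genes, 0 were higher and 0 lower in *MIS/MIS* at a Benjamini-Hochberg adjusted p under 0.05 (0% called in each direction), with 53 higher and 55 lower at an unadjusted p under 0.05 (1.09% of genes). Evenly spread p-values would put a share of 0.05 of the genes there, so these genes are no excess. Normalised levels did not overlap between the genotypes for 11.6% of genes. With 3 against 2 mice some genes separate in this way without any difference. Neither share therefore measures an effect of genotype. In a fit of the log2 difference between Basal7 and the other basal clusters of the same mouse, 0 of 9947 genes passed (0% called) and 193 had an unadjusted p under 0.05. The median SD between mice of a genotype was 0.255 on the log2 scale. In simulated data of this design, 98.5% of genes changed 4-fold were recovered at a dispersion of 0.02 and 78% at 0.1. For genes changed 2-fold 64.5% and 0% were recovered. The simulation gave all genes the same dispersion and held no mouse that stood apart, as *WT/WT* mouse 1 did here. Larger differences in the data also failed to pass, among them log2 differences of 4.58 for *Xlr3b* and -6.64 for *Gm47283*. Changes of 2-fold, 4-fold or more could thus have been missed.

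Values are given for the genes with the lowest unadjusted p. *Wdfy1*, an adaptor of endosomal Toll-like receptor signalling, had normalised levels of 19.7, 19.8 and 18.3 CPM in *WT/WT* and 45.4 and 58.1 CPM in *MIS/MIS*, a log2 difference of 1.34 (SE 0.185, adjusted p = 1.00 in limma). *Xlr3b*, an X-linked lymphocyte-regulated gene with close paralogs between which reads may be split, had 0, 0.815 and 0 CPM against 9.42 and 9.35 CPM (adjusted p = 1.00 in limma). *Gpx3*, *Flrt3* and *Hoxa5* also had higher levels in both *MIS/MIS* mice. In the other direction *Gm47283* had 25.7, 52.7 and 97.8 CPM against 0.154 and 22.0 CPM, and *Auts2* had 36.5, 40.2 and 51.0 CPM against 26.0 and 17.4 CPM. *Rims2*, *Fzd10* and *Retsat* followed, and none of these 10 genes passed.

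The markers of Basal7 overlapped between the genotypes. For *Mmp7* the log2 difference was 1.43 with a SE of 1.58, for *Cd74* it was 0.77 with a SE of 1.16 and for *H2-Aa* it was -0.64 with a SE of 1.28. Of 6 class II genes tested, 0 were called, 5 had lower and 1 higher values in *MIS/MIS*, and 0 had levels that did not overlap. Their median log2 difference was -0.32, beside -0.0011 over all genes tested. Without *WT/WT* mouse 1 it was 0.31, and without the 4 cells high in *Spink8* or *Tg* it was 0.43, so the direction turned with that mouse and those cells. It was 0.12 without MT1301. Of 16 class I genes 14 and of 17 interferon-stimulated genes 14 had higher values in *MIS/MIS*, with medians of 0.090 and 0.19. In either list 0 passed and 0 had levels that did not overlap. The 2 *MIS/MIS* mice of the fit did not agree: the summed interferon-stimulated level was 4358 CPM in MT1301 and 2433 CPM in MT1306. In MT1383, which was not in the fit and had 12 Basal7 cells, the level was 4079 CPM. It was 3160, 3077 and 3054 CPM in *WT/WT* mice 1, 2 and 3.

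**Figure D5:**
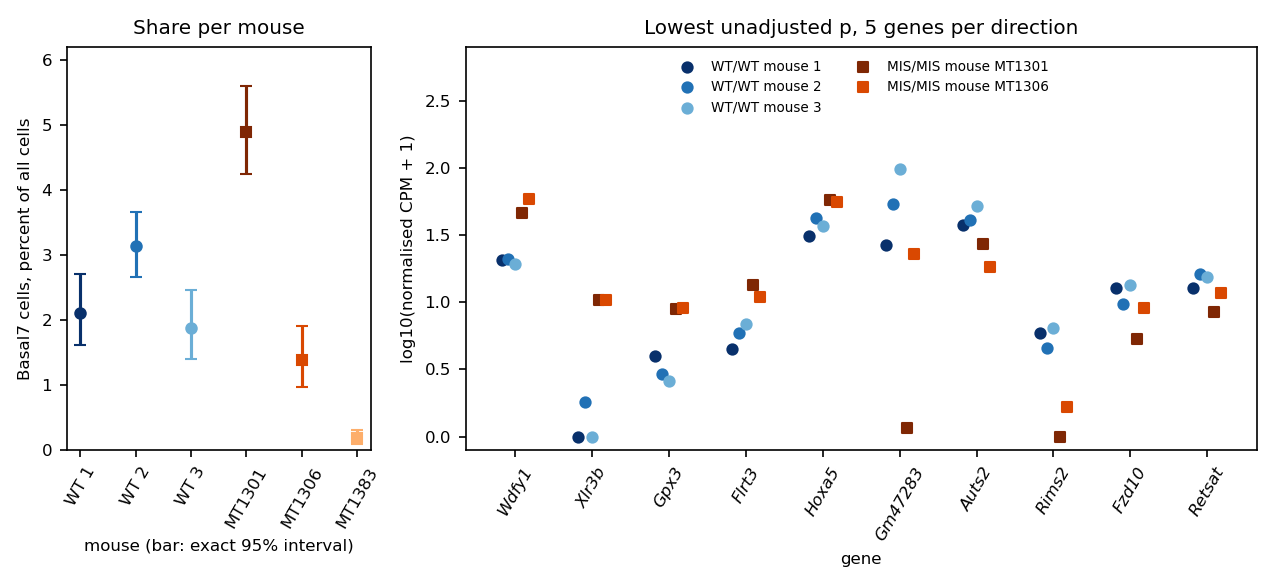
Left, Basal7 cells as a percent of all cells of each mouse with its exact 95% interval. Right, normalised level, as log10(CPM + 1), of the 5 genes per direction with the lowest unadjusted p in the limma voom fit of 3 *WT/WT* mice (circles) and 2 *MIS/MIS* mice (squares). The shares of the genotypes overlap, and none of the 10 genes passed after adjustment.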

How the data were processed

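The authors dissociated air-liquid interface cultures, prepared droplet 3' libraries and processed the reads with Cell Ranger (version 7.1.0 and build mm10 per the submitters' notes; the paper's text names another version), used Seurat to filter and cluster the cells, and deposited UMI counts of 20483 genes in 23871 cells with cluster names at 2 resolutions. A slash and the letter t stand between the values of the count table where a tab was meant. All values were whole numbers, none was below 0, and the totals equalled the authors' own in all 23871 cells. Because of the separator the table was not entered as counts, and limma was used without a negative binomial test. None of the animal numbers given to the *MIS/MIS* libraries occurs in a sample title.

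Basal7 cells were taken from the cluster names, and counts were summed per mouse. Where nothing says that cultures were independent beyond the mouse, p-values measure the spread between these samples. Genotypes were compared with limma 3.58.1 (voom, R 4.3.3) in mice with at least 20 Basal7 cells, after a filter of 10 counts in a library of median size (total of 15) and TMM scaling with trims of 0.3 and 0.05. The fit of ratios used trended limma with 1 CPM added. Adjusted p-values are Benjamini-Hochberg values over all genes tested, with a threshold of 0.05. Summed UMIs in the fit ranged from 1534584 to 6396813 per mouse. The method was tested on simulated counts. Cells were thinned to 5000 UMIs with a fixed seed, and shares carry exact (Clopper-Pearson) 95% intervals. A share at 0 allows up to 3 counts of the total. No doublet caller was run. The methods state an upper limit of 7500 genes, but Basal7 cells outside the stated limits are among those deposited, and 1 of them has 7963 genes. Within the limits on genes and mitochondrial UMIs lay 58 of 60, 150 of 152 and 50 of 52 Basal7 cells of *WT/WT* mice 1, 2 and 3. The numbers were 194 of 197, 36 of 37 and 12 of 12 in MT1301, MT1306 and MT1383. Doublets were not otherwise treated.

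The genes named were the first 25 and last 10 of the ranking, the 5 lowest p per direction of the genotype fit, the members of the lists, *Dnaaf5* and *Wdfy1* (called in earlier work on these data), and the 5 closest correlates of *Mmp7* and *H2-Aa*. Some members of these sets are not reported here. The members and lists were chosen with earlier results of these data known. Genes of 5 CPM or more on average were counted in lists. Promoters come from RefSeq on GRCm38.p6 and gene positions from GENCODE M21. Alternatives were other normalizations and filters, limma-trend, each mouse left out, minimums of 10 and 50 cells, equal cell numbers, thinning and the stated cell filters. Omitting cells high in *Spink8* or *Tg*, finer cluster 18 alone, and pooled levels of the finer clusters without *WT/WT* mouse 1, were added after the data were seen. Descriptions were computed in Python 3.11.15 (pandas 2.3.3, numpy 2.4.6, scipy 1.17.1) and drawn with matplotlib 3.10.9.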

Additional observations from a re-analysis of the deposited data

How the results depend on the processing

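The counts of genes past the threshold stayed at 0 in both directions and in the fit of ratios under every alternative run. The class II median log2 difference, -0.32 as reported, lay between -0.94 and 0.31 when each mouse was left out (0.31 without *WT/WT* mouse 1, 0.12 without MT1301). It was 0.20 after thinning to 5000 UMIs, where only 1 of the genes could be tested, and 0.43 without the cells high in *Spink8* or *Tg*, an alternative added after seeing the data. The difference in the share of Basal7 cells, *MIS/MIS* minus *WT/WT*, was -0.225 percentage points. With each mouse left out it lay between -1.59 and 0.760, with 0.156 without *WT/WT* mouse 2, 0.158 without MT1306 and 0.760 without MT1383. Leaving out an *MIS/MIS* mouse, or requiring 50 cells, left 1 *MIS/MIS* mouse in the fit, which was then assumed to vary like the others. No paired analysis was possible because the sample labels used here name no litter or pair. Mutant libraries are also named by numbers that occur in none of the titles. The cause of these differences was not tested beyond the cells and mice named. Depth limits the values of MT1383, with 12 cells, most.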

Other observations

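Some genes of epithelial inflammation, *Cxcl1* and *Nfkbia* among them, were highest in the Basal7 cells of *WT/WT* mouse 1. The summed level of a list of injury and inflammation genes was not highest there. That sum was 5851, 4710 and 2959 CPM in Basal7 of *WT/WT* mice 1, 2 and 3 and 6809, 4717 and 2271 CPM in MT1301, MT1306 and MT1383. *Cxcl1*, a neutrophil chemokine, had 39.5, 8.06 and 2.17 CPM in *WT/WT* mice 1, 2 and 3 and 14.2, 1.30 and 0 CPM in MT1301, MT1306 and MT1383, against at most 4.79 CPM in other cells. *Nfkbia*, the inhibitor of NF-kappaB, had 300, 78.1 and 45.6 CPM in *WT/WT* and 94.6, 133 and 86.3 CPM in *MIS/MIS*. *Tnf* had 17.4, 2.78 and 0 CPM in *WT/WT* and 4.38, 3.91 and 17.3 CPM in *MIS/MIS*, against at most 0.459 CPM in other cells, and MT1383 rests on 5 UMIs. In *WT/WT* mouse 1 the 84 *Cxcl1* UMIs lay in 15 of 60 cells, the 637 *Nfkbia* UMIs in 51 and the 37 *Tnf* UMIs in 10, of which 1 cell held 17.

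*Reg3g*, an antimicrobial lectin, was at 16937 CPM in Basal7 of *WT/WT* mouse 1 and at 741 CPM in *WT/WT* mouse 3, and *Scgb3a2* of secretory cells was at 1456 and 29.8 CPM. *WT/WT* mouse 3 was also the mouse with the highest *Krt14* and *Krt17*, at 1545 and 2312 CPM.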
